A study of Mus musculus with 12 samples.

Results

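The 47 genes described here encode the complement and coagulation factors of mouse plasma together with their inhibitors, and they were chosen by name from the gene lists of both count tables, which have 20093 genes in common. The rule uses gene names and no measured value, although it was written with earlier results of these data known. Of the 47, 46 were listed under their own names, and Klkb1, plasma prekallikrein, was listed in both tables as Klkb1_1 and was matched by its identifier, ENSMUSG00000109764. By role they fall into 7 genes of the classical pathway and its regulators, 5 of the lectin pathway, 5 of the alternative pathway, 6 of the terminal pathway, 7 of the contact phase and the initiation of clotting, 7 of the common pathway and fibrin, 6 anticoagulants and 4 of fibrinolysis and related enzymes.

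Complement and coagulation are cascades of plasma proteases that circulate as inactive precursors, each cleaved by the one before it. Complement tags microbes and damaged cells and ends in a membrane attack complex, whereas coagulation ends in thrombin, which cleaves fibrinogen to fibrin, and plasmin dissolves the clot. Hepatocytes make most of these proteins and secrete them into blood, so that the liver sets much of their plasma level, and several of them are acute-phase proteins whose transcripts respond to cytokines of the IL-6 family.

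The livers came from 12 male C57BL/6N mice, and every mouse carried floxed alleles of Elavl1 (HuR F/F), the gene of the RNA-binding protein HuR. Per the labels, mice of 4 to 6 months received the adeno-associated virus AAV8-Tbg-Cre (HuRHep-/-), in which the hepatocyte promoter Tbg drives Cre, or AAV8-Tbg-null (WT), and the study's own methods instead describe an Alb-Cre cross. Each genotype was fed normal chow or, for 16 weeks, a high fat, cholesterol and fructose diet (HFCF) with 40 kcal% fat, 2% cholesterol and 20 kcal% fructose, with 3 livers in each of the 4 groups. The comparisons address how loss of HuR in hepatocytes and the HFCF diet alter the liver transcriptome.

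The promoters of the members that moved most or lie side by side are given here, because their letters can be set beside the values that follow: the 3 fibrinogen chains, which fell together under HFCF, C8b and C8a, neighbours on chromosome 4 with the largest falls of the terminal pathway in both genotypes, F11, and Cfd, which rose. Each sequence is from RefSeq on GRCm38.p6, runs 5′ to 3′ along the gene, and holds 250 bases before and 50 bases after the start of the transcript. Capitals mark GTTAAT or its reverse complement ATTAAC, a partial site of the hepatocyte factor HNF1, and CTGGGAA, the core of an IL-6 response element of acute-phase genes, searched on both strands. The Fgg promoter is chr3:83007474-83007773 on the plus strand, that of Fga chr3:83025903-83026202 on the plus strand and that of Fgb chr3:83049814-83050113 on the minus strand. The C8b promoter is chr4:104766067-104766366 on the plus strand, that of C8a chr4:104876349-104876648 on the minus strand, that of F11 chr8:45261982-45262281 on the minus strand and that of Cfd chr10:79890603-79890902 on the plus strand.
Fgg: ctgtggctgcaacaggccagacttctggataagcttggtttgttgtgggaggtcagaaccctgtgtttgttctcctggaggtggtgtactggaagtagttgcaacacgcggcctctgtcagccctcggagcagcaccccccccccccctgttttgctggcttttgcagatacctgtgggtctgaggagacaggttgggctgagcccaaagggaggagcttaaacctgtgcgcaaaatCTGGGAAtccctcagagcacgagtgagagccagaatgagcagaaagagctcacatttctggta
Fga: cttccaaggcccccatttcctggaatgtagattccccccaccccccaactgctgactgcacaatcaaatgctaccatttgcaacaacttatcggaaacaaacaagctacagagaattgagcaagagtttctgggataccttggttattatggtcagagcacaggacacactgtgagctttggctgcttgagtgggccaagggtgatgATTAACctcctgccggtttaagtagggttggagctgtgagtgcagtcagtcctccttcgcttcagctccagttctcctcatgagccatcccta
Fgb: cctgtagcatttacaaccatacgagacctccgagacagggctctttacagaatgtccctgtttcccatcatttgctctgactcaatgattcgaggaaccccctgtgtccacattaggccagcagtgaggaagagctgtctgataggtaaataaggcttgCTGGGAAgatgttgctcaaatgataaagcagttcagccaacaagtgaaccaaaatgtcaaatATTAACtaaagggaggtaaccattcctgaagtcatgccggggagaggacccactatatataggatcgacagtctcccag
C8b: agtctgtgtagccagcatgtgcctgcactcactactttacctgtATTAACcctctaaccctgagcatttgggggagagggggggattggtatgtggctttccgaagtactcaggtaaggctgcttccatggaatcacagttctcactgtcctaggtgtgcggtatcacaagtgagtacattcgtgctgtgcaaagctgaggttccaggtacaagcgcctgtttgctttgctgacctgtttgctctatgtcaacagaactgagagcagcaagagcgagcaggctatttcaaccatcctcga
C8a: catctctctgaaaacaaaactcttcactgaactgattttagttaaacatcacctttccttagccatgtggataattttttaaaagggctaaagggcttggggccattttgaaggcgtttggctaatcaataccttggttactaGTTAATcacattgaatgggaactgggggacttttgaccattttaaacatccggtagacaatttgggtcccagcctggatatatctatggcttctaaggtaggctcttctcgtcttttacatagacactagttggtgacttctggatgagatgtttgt
F11: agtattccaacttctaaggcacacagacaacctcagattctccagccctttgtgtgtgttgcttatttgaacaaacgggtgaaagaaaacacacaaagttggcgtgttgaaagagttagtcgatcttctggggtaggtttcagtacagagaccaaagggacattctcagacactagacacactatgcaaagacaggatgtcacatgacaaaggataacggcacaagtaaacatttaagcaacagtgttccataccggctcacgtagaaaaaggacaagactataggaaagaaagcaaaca
Cfd: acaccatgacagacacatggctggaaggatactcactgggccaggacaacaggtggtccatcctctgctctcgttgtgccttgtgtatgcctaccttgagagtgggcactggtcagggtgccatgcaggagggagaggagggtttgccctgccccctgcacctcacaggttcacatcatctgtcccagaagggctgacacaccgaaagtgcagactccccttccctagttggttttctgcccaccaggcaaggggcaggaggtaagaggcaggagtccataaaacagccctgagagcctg

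Of the 7 printed promoters, those of Fga, Fgb, C8b and C8a held the HNF1 letters, those of Fgg and Fgb held the IL-6 core, and those of F11 and Cfd held neither. Promoters were found for 38 of the 47 members, 41 sequences in all. GTTAAT was present in 31.7% of them against 7.1% of all 32851 promoters of this length, and CTGGGAA in 22.0% against 11.1%. The STAT site TTCNNNGAA was present in 22.0% against 8.3%, the partial HNF4 site CAAAGT in 19.5% against 14.4%, and the C/EBP site TTNNGNAA in 53.7% against 40.7%. CTGGGAA and TTCNNNGAA can overlap, and a match of letters describes the sequence and is not a measured binding site. At the other end of the transcript, HuR is known to bind AU-rich and U-rich stretches of 3′ untranslated regions. The pentamer ATTTA was present in the annotated 3′ untranslated region of 18 of the 47 members (38.3%), against 66.6% of 13256 genes tested, and a run of 7 T in 11 members (23.4%) against 41.1%. These regions were shorter in the members, with a median of 325 bases against 999, so the shares are not on equal lengths.

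Each library held 30071731 to 35949203 counts. Levels are given as CPM, which are counts scaled to a common library size with TMM factors, and the genes tested were those that passed a filter on low counts. Elavl1 went against its label: CPM was 31.1, 29.3 and 31.3 in the chow WT livers and 42.9, 39.4 and 39.0 in the chow livers labelled HuRHep-/- (log2 fold change 0.40, limma adjusted p = 0.0255), and 23.8, 24.2 and 27.0 against 32.1, 31.9 and 33.7 under HFCF (0.38, limma adjusted p = 0.0326). The counts are per whole gene, so they do not show which exons were read. The study also measured HuR by qPCR and western blot in its acetaminophen experiments, with mice its methods describe as an Alb-Cre cross. The labels of the livers sequenced here name AAV8-Tbg-Cre instead. Those measurements are not analysed here, and every direction between genotypes below rests on the labels. The tissue label matched hepatocyte markers, whose sum over 8 genes lay between 60720 and 118800 CPM in the 12 livers. Each library is 1 mouse, p-values measure the spread between these livers, and 3 livers against 3 allow no exact permutation p below 0.1 for a single gene. Diet coincides with the count table, so HFCF feeding cannot be told apart from any other difference between the 2 feeding experiments.

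The 47 members made up 3.447% to 3.606% of all counts in the chow WT livers and 2.671% to 3.142% in the HFCF WT livers. Per kilobase of exon in chow WT livers, the 3 fibrinogen chains, vitronectin (Vtn), which binds the terminal complex, and C3, the component on which all complement pathways converge, stood highest, with mean levels of 1550 CPM per kb for Fgg, 1330 for Fga, 1230 for Vtn, 1140 for Fgb and 820 for C3. At the other end were Pros1 at 11.8 CPM per kb, Cfp at 7.6, Masp1 at 1.25, Cfd at 0.887 and Tfpi at 0.579. Tfpi (tissue factor pathway inhibitor) and Cfp (properdin) are made largely outside hepatocytes. The first 5 places by mean were held by the same 5 genes in all 4 groups. Neighbours in that order are close: the chow WT means per kb of Fga and Vtn differed by less than 1 SD of Fga.

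**Figure D1:**
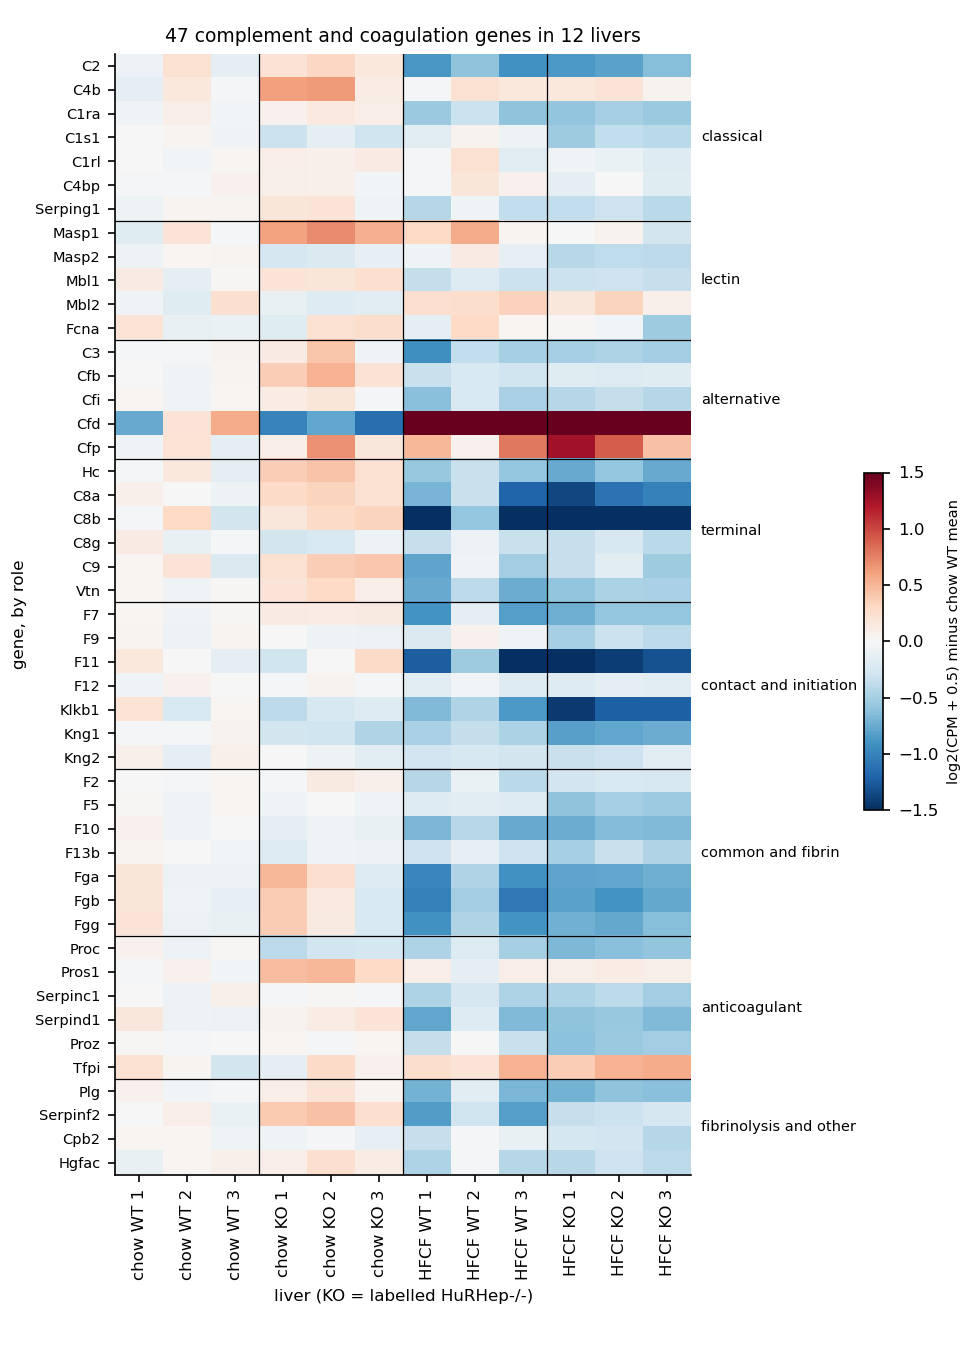
Heat map of the 47 members (rows, by role) in the 12 livers (columns, by group), coloured by log2(CPM + 0.5) relative to the mean of the chow WT livers, with the colour limited to 1.5 in either direction. Most rows are lower in the 6 HFCF livers, HFCF WT replicate 2 is the palest of them, and Cfd is the row with the strongest change upward.

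Under HFCF most complement and coagulation transcripts were lower than under chow, in both genotypes. In WT, 27 of 47 members fell and 1 rose (limma, adjusted p of at most 0.05), where 13.3% of the 14535 genes tested fell and 11.1% rose. Fitted on the 6 WT livers alone, 16 fell and 1 rose, where 15.1% of all genes were called. In livers labelled HuRHep-/-, 35 members fell and 2 rose, against 20.9% and 18.8% of all genes. Cfd was the member that rose in WT and 1 of the 2 in HuRHep-/-, and it passed the filter only through the HFCF livers. The median log2 fold change of the members was -0.30 in WT and -0.51 in HuRHep-/-, where the median of all genes tested was 0.0025 and -0.020. A fold change of at least 1.5 was reached by 13 of the falling members and 1 rising member in WT (9.89% of all genes in either direction) and by 18 and 1 in HuRHep-/- (19.8%). Livers of the 2 diets did not overlap for 27 members that were lower and 2 that were higher in WT (37.6% of all genes in either direction), and for 39 and 3 in HuRHep-/- (55.5%). Of the members, 26 fell in both genotypes. Scaling by total counts alone, chosen after seeing the data, moved the median of the members to -0.12 in WT and -0.26 in HuRHep-/-. The median of all genes became 0.19 and 0.23. This scaling left 20 members lower and 6 higher in WT and 26 lower and 4 higher in HuRHep-/-, where 28.3% and 41.6% of all genes were called. In whole tissue, fewer hepatocytes and less RNA per hepatocyte cannot be told apart.

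The sum of all members was 38540 to 41150 CPM in chow WT, 37910 to 44880 in chow HuRHep-/-, 25280 to 32380 in HFCF WT and 26490 to 27310 in HFCF HuRHep-/-. Both HFCF groups lay below both chow groups. The 8 hepatocyte markers were also lower under HFCF within each genotype, with sums of 96300 to 118800, 76900 to 86500, 67090 to 77280 and 60720 to 64480 CPM in the same order, and 4 of the 8 fell in each genotype. Alb, which encodes albumin, made up most of these sums, with 63500 to 80230 CPM in chow WT and 49640 to 55470 in chow HuRHep-/-, and limma called 0 of the 8 markers between genotypes in chow (2 at an unadjusted p under 0.05). Hnf4a, the nuclear receptor that drives much of hepatocyte transcription, fell by 0.51 on the log2 scale in WT and by 0.49 in HuRHep-/-. Cps1, a urea cycle enzyme, fell by 0.83 and 0.81. Of 10 secreted liver proteins, a list that shares Alb, Ttr and Apoa1 with the markers, 5 fell in each genotype, with medians of -0.41 and -0.38. Of 14 regulators of these genes, 4 fell in WT and 3 in HuRHep-/-, Hnf4a among them. Beside these lists, 13.3% of all genes tested fell in WT and 20.9% in HuRHep-/-, so the regulators in HuRHep-/- lay near the background. The part of the hepatocyte share in the members' fall was not tested.

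HFCF WT replicate 2 stood apart from the other 2 livers of its group. It was the highest of the 3 for 42 of the 47 members, with a median of 0.29 on the log2 scale above the other 2, where the median over all genes was 0.0077. Its macrophage marker sum was 75.5 CPM against 100.5 and 170.7, and its Cidec, a lipid droplet gene, was 33.8 CPM against 176 and 164. Without it, 32 members fell and 1 rose with HFCF in WT, where 27.5% of all genes were called in either direction, and the median was -0.41 for the members and -0.0091 for all genes.

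The terminal pathway assembles the membrane attack complex. C8b, the beta chain of C8, had the largest fall of the 47 members in both genotypes. It was 336, 420 and 284 CPM in chow WT, 112, 228 and 66.6 in HFCF WT, 384, 418 and 433 in chow HuRHep-/- and 68.8, 89.1 and 92.2 in HFCF HuRHep-/-. All 6 HFCF livers lay below all 6 chow livers, and C8b fell by 1.52 (SE 0.329, adjusted p = 0.00747) in WT and by 2.31 (SE 0.329, adjusted p = 0.000494) in HuRHep-/- on the log2 scale (limma). C8a, the alpha chain, was 639, 604 and 577 CPM in chow WT, 374, 481 and 263 in HFCF WT, 739, 767 and 710 in chow HuRHep-/- and 235, 282 and 299 in HFCF HuRHep-/-, and fell by 0.74 and 1.45. C8g, the gamma chain, encoded on another chromosome, was 414 to 484 CPM in chow WT and 352 to 418 in HFCF WT, with log2 fold changes of -0.26 and -0.14 that did not pass the test. The 3 chains of one complex therefore moved by unequal amounts, and the ratio of C8b to C8a went from 0.571 ± 0.109 (SD, n = 3) in chow WT to 0.342 ± 0.116 in HFCF WT, ranges that did not overlap. C8g to C8a went from 0.736 ± 0.0437 to 1.05 ± 0.254 in WT and from 0.529 ± 0.0548 to 1.32 ± 0.184 in HuRHep-/-.

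Elsewhere in the terminal pathway, Hc, which encodes C5, fell by 0.50 in WT and by 1.04 in HuRHep-/- on the log2 scale. Its CPM was 537, 605 and 490 in chow WT and 365, 430 and 362 in HFCF WT, and 700, 731 and 634 against 320, 362 and 320 in HuRHep-/-. Vtn fell by 0.63 and 0.71. C9, the pore-forming component, fell in HuRHep-/- (-0.68, limma adjusted p = 0.00852), and in WT its value was -0.46 (limma adjusted p = 0.0698).

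In the classical pathway, C2, the protease of the C3 convertase, was 107, 133 and 104 CPM in chow WT and 61.8, 74.6 and 60.4 in HFCF WT, and fell by 0.80 (SE 0.109, limma adjusted p = 0.000907). In HuRHep-/- it fell by 1.00. C1ra, the C1r protease, fell by 0.49 and 0.65, from 332 to 367 CPM to 226 to 276 CPM in WT. Serping1, the C1 inhibitor, fell in HuRHep-/- (-0.47), with -0.29 in WT. C1s1, C1rl, C4b and the C4b-binding protein gene C4bp passed the test in neither genotype, and their WT log2 fold changes lay between -0.06 and 0.12. In HuRHep-/- their values were all below 0, at -0.18, -0.21, -0.32 and -0.15 in that order. The 2 proteases of the C1 complex thus diverged, and C1s1 to C1ra was 1.19 ± 0.0424 in chow WT and 1.61 ± 0.0952 in HFCF WT.

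Of the alternative pathway, C3, Cfb (factor B) and Cfi (factor I, which degrades C3b) fell in both genotypes, C3 by 0.60 and 0.65, Cfb by 0.29 and 0.56 and Cfi by 0.45 and 0.50. In WT, C3 kept the call in 9 of 12 fits that each left out 1 liver and Cfb in 8 of 12. Cfp did not pass the test (0.47 and 0.56). In the lectin pathway, Mbl1 and Mbl2, the mannose-binding lectins, went opposite ways in HuRHep-/-. Mbl1 was 210, 208 and 218 CPM in the chow livers and 146, 147 and 144 in the HFCF livers, a fall of 0.54 on the log2 scale, whereas Mbl2 was 291, 275 and 283 and then 354, 398 and 333, a rise of 0.35 (limma adjusted p = 0.0173). In WT, Mbl1 fell by 0.29, a call kept in 8 of 12 such fits, and Mbl2 was 0.29 higher without passing the test. Fcna, a ficolin of macrophages, passed in neither.

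Cfd, factor D or adipsin, the protease that cleaves factor B and is known mainly as a product of adipocytes, was the member that rose most. It had 7, 27 and 40 counts in the chow WT livers and 4, 7 and 2 in the chow HuRHep-/- livers. Under HFCF it had 9866, 1598 and 1884 counts in WT and 1082, 982 and 1637 in HuRHep-/-. No HFCF liver came near a chow liver. The log2 fold change, with 0.5 added to each count, was 7.08 (SE 0.693) in WT and 7.86 (SE 0.693) in HuRHep-/-, an understatement for so low a start. Cfd passed the low-count filter only through the HFCF livers, where it was high. Its limma adjusted p (0.000165 in WT, 6.58e-05 in HuRHep-/-) is therefore no support for the rise. The defining adipocyte genes Adipoq and Plin1 were at 0.133 CPM or less in each of the 12 livers, too low to be tested, and Cidec, on the same marker list, went from 3.38, 5.16 and 5.24 CPM to 176, 33.8 and 164 in WT, and the part of adipocytes in the rise of Cfd was not tested. HFCF WT replicate 1 alone held 260 CPM of Cfd against 49.0 and 59.9 in its group, and without it the WT log2 fold change was 6.33.

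**Figure D2:**
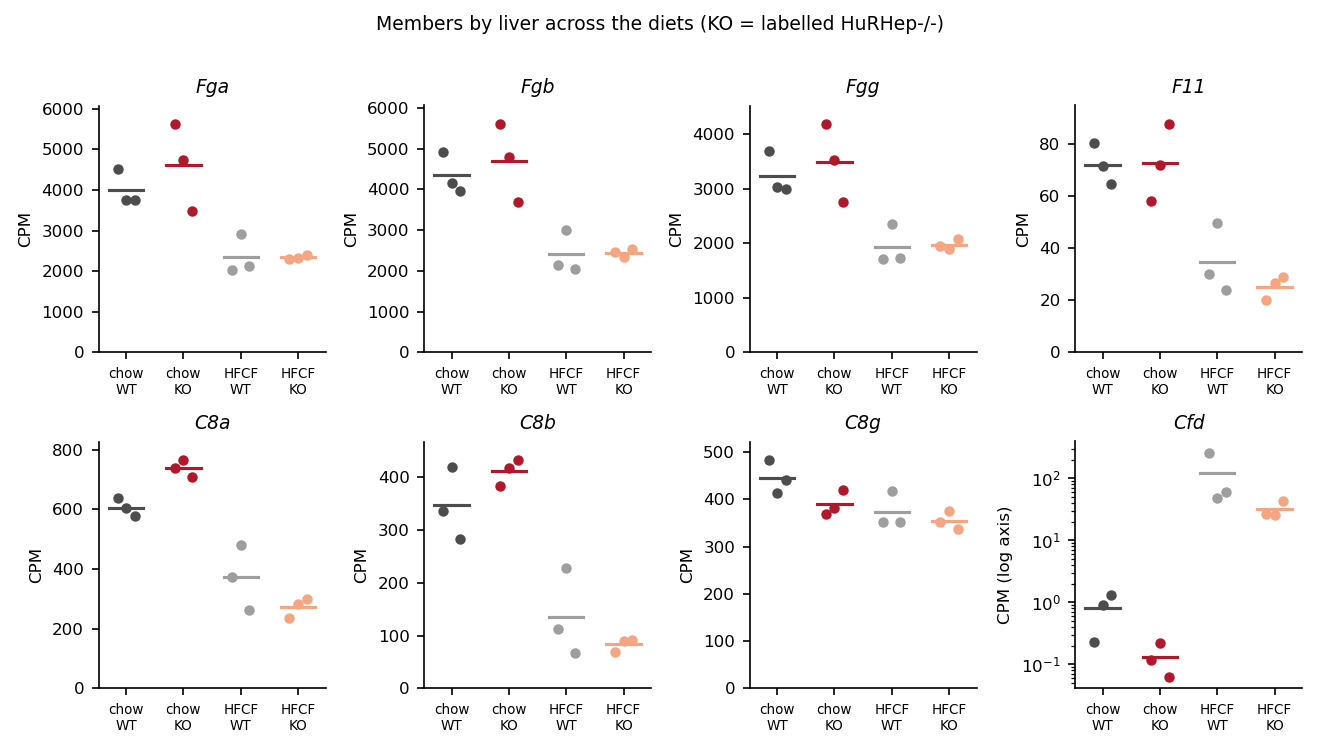
CPM in each of the 12 livers (points, by group on the horizontal axis) and group means (bars) for 8 members described for diet, where KO stands for livers labelled HuRHep-/-. C8b, C8a and F11 sit lower in all 6 HFCF livers than in all 6 chow livers, C8g overlaps between diets, and Cfd, on a log axis, goes from at most 1.32 CPM to at least 25.2 CPM.

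All 7 members listed under the common pathway and fibrin fell with HFCF in both genotypes. Fga was 4513, 3755 and 3740 CPM in chow WT, 2025, 2922 and 2122 in HFCF WT, 5629, 4736 and 3486 in chow HuRHep-/- and 2308, 2325 and 2396 in HFCF HuRHep-/-. No liver overlapped between diets, and Fga fell by 0.78 and 0.95, Fgb by 0.87 and 0.92 and Fgg by 0.76 and 0.80 on the log2 scale. The 3 chains lie within one stretch of chromosome 3 with gaps of 11 and 6.51 kb. Fga to Fgb was 0.923 ± 0.0208 in chow WT and 0.984 ± 0.0444 in HFCF WT (SD, n = 3). In HuRHep-/- it went the other way, from 0.979 ± 0.0292 to 0.959 ± 0.0342. Fgg to Fgb was 0.746 ± 0.0121 and 0.807 ± 0.0293 in WT and 0.744 ± 0.00719 and 0.807 ± 0.0142 in HuRHep-/-, higher in all 6 HFCF livers (at least 0.784) than in all 6 chow livers (at most 0.755). F10, factor X, which cleaves prothrombin, fell by 0.62 and 0.58, from 523 to 574 CPM to 322 to 410 CPM in WT. F2, prothrombin, fell by 0.31 in both genotypes, but passed the test in only 5 of 12 fits that each left out 1 liver in WT and 7 of 12 in HuRHep-/-. F5, the cofactor of factor X, and F13b, the carrier chain of the fibrin-crosslinking factor XIII, fell by 0.19 and 0.25 in WT, where they passed in 8 of 12 and 9 of 12 such fits.

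In the contact phase and initiation, F11 (factor XI) was 80.2, 71.5 and 64.7 CPM in chow WT and 30.2, 49.6 and 24.0 in HFCF WT, and 58.1, 72.0 and 87.8 against 20.3, 26.6 and 28.7 in HuRHep-/-. It fell by 1.12 (SE 0.235) and 1.52 (SE 0.235) on the log2 scale. Klkb1, its neighbour on chromosome 8 with a gap of 4.66 kb, was 435, 322 and 385 CPM in chow WT and 238, 277 and 208 in HFCF WT, and fell by 0.66 and 1.02. Kng1, a kininogen gene, fell by 0.44 in both genotypes, from 2300, 2285 and 2430 CPM to 1669, 1822 and 1677 in WT. F7, the protease that starts clotting with tissue factor, fell by 0.63 and 0.76, and lies 1.5 kb from F10. F12, the first protease of the contact phase, passed in neither genotype (-0.13 and -0.17).

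Among the anticoagulants, Proc (protein C), Serpinc1 (antithrombin) and Serpind1 (heparin cofactor II) fell in both genotypes, by 0.39, 0.39 and 0.55 in WT. Serpinc1 was 2043, 1928 and 2171 CPM in chow WT and 1484, 1713 and 1484 in HFCF WT. Pros1, protein S, and Proz, protein Z, fell in HuRHep-/- (-0.33 and -0.57), where the WT values of 0.02 and -0.23 did not pass. Of the fibrinolysis genes, Plg, plasminogen, fell by 0.52 (called in 9 of 12 fits that each left out 1 liver) and 0.75 and Serpinf2, which encodes the plasmin inhibitor alpha-2-antiplasmin, by 0.65 and 0.67. Serpinf2 was 728, 779 and 676 CPM in chow WT and 408, 588 and 411 in HFCF WT. Cpb2 and Hgfac fell in HuRHep-/- (-0.26 and -0.53) and did not pass in WT, and Cpb2 kept its call in 7 of 12 such fits. Tfpi, which inhibits the tissue factor complex, went the other way without passing, with log2 fold changes of 0.37 (limma adjusted p = 0.144) and 0.465 (limma adjusted p = 0.0537), and was called in 4 of 12 fits that each left out 1 liver in HuRHep-/-.

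**Figure D3:**
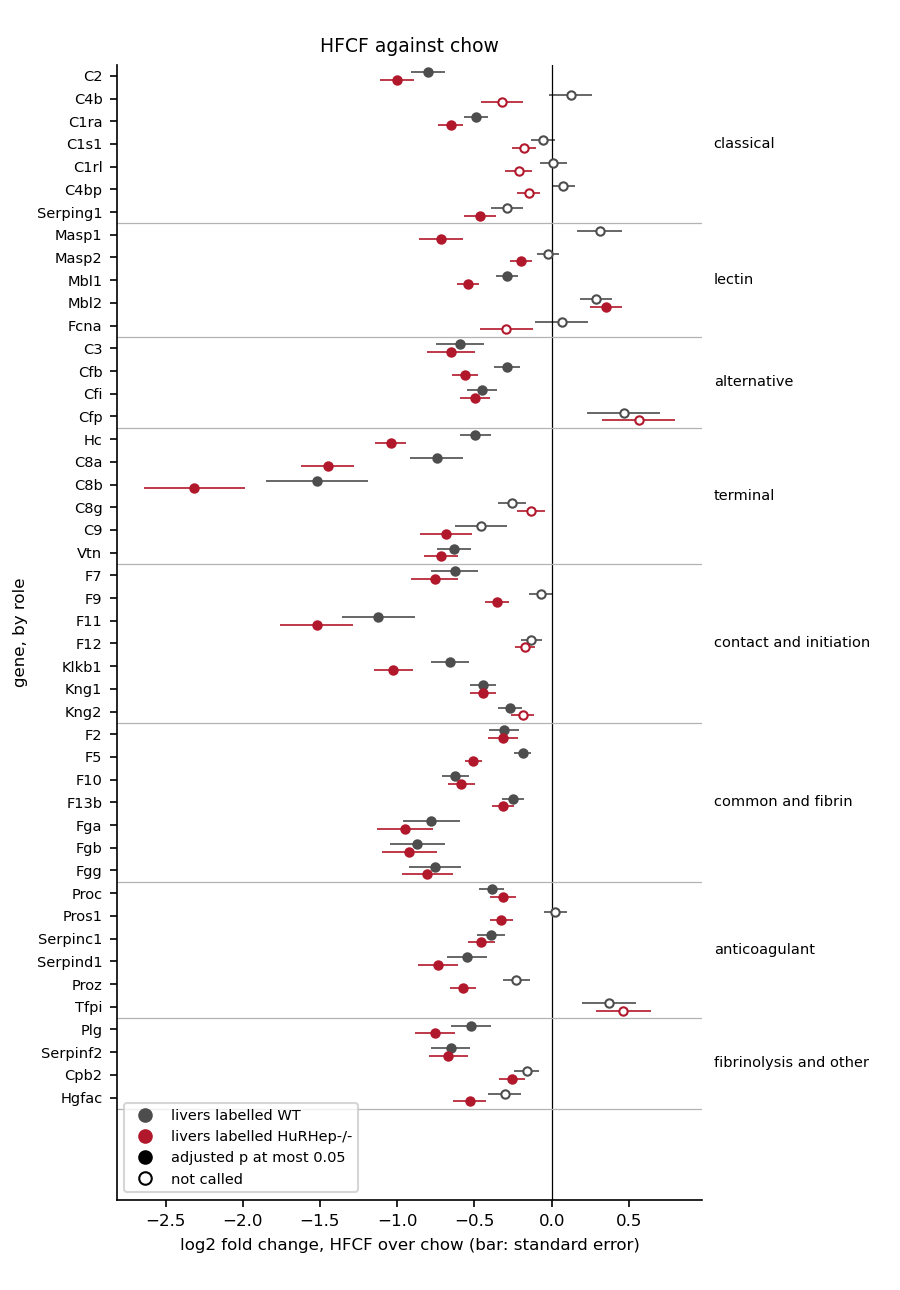
Log2 fold change of HFCF over chow (horizontal axis) for 46 members by role (vertical axis), grey for WT and red for HuRHep-/-, with standard errors as bars and filled points where the limma adjusted p is at most 0.05. Cfd is left out because its values of 7.08 and 7.86 lie off the scale. All 7 members listed under the common pathway and fibrin are filled and to the left of 0 in both genotypes.

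Falls called in livers labelled HuRHep-/- and not in WT were those of C9, Cpb2, F9, Hgfac, Masp1, Masp2, Pros1, Proz and Serping1, and the reverse held for Kng2. Of these, Masp2 kept its call in 4 of 12 fits that each left out 1 liver and Kng2 in 8 of 12. These differences are not shown by the test of the difference itself. For the genotype by diet interaction, limma called 0 of 47 members and 0.0% of 14535 genes, and limma with voom weights called 0 members. At an unadjusted p under 0.05 there were 10 members (21.3%), against 14.6% of all genes, and the median interaction term of the members was -0.17, against -0.011 for all genes. Without HFCF WT replicate 2 that median was -0.059, against -0.0012, and under total-count scaling it was -0.11, against 0.053. The smallest adjusted p was that of Masp1 (interaction -1.03, limma adjusted p = 0.106).

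Few members were called between genotypes. In chow, 2 of 46 members tested were higher in livers labelled HuRHep-/- and 0 were lower, where 2.24% of 13526 genes were higher and 2.04% lower. Cfd had too few counts to be tested in chow. A fold change of at least 1.5 was reached by 1 member, against 2.37% of all genes. The groups did not overlap for 12 members that were higher and 6 that were lower, 18 of 46, against 29.1% of all genes. At an unadjusted p under 0.05 there were 14 members (30.4%), against 23.4% of all genes. The median log2 fold change was 0.10 for the members and -0.0013 for all genes. Fits that each left out 1 liver gave member medians of 0.055 to 0.11. Total-count scaling gave 0.19, against 0.085 for all genes.

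The 2 members called in chow were Masp1, a protease of the lectin pathway, and Pros1, the cofactor of activated protein C. On GRCm38, Masp1 (ENSMUSG00000022887) is at chr16:23449417-23520815 on the minus strand, and Pros1 (ENSMUSG00000022912) at chr16:62854307-62929346 on the plus strand. Masp1 was 10.7, 14.1 and 12.1 CPM in WT and 18.8, 20.4 and 18.0 in HuRHep-/-, and rose by 0.64 on the log2 scale (SE 0.115, 1.55-fold, limma adjusted p = 0.0278). Pros1 was 47.7, 50.3 and 46.8 CPM in WT and 66.7, 68.2 and 59.6 in HuRHep-/-, and rose by 0.42 (SE 0.074, 1.34-fold, limma adjusted p = 0.0259). For both genes all 3 livers labelled HuRHep-/- lay above all 3 WT livers. Both calls were lost without WT replicate 1, WT replicate 3, HuRHep-/- replicate 1 or HuRHep-/- replicate 2, with adjusted p up to 0.133 for Masp1 and 0.129 for Pros1. Masp2, the companion protease of Masp1, was 209, 226 and 227 CPM against 185, 190 and 203, with a value of -0.19 that did not pass, and Masp2 to Masp1 went from 18.1 ± 1.83 to 10.2 ± 0.996.

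Other members that differed most within their role in chow did not pass the test. C4b was 722, 879 and 776 CPM in WT and 1211, 1230 and 851 in HuRHep-/-, with a log2 fold change of 0.46 (limma adjusted p = 0.134) and livers that overlapped. Cfb was 986, 948 and 1005 CPM against 1265, 1411 and 1135 (0.37, limma adjusted p = 0.0734), without overlap. Serpinf2 was 728, 779 and 676 CPM against 955, 985 and 868 (0.36, limma adjusted p = 0.063), also without overlap. In the other direction Kng1 was 2300, 2285 and 2430 CPM against 1938, 1901 and 1715 (-0.34, limma adjusted p = 0.0858). Proc was 604, 543 and 583 CPM against 440, 472 and 480 (-0.31, limma adjusted p = 0.0535). Both were lower in every liver labelled HuRHep-/-, yet neither was called in the fit on the 6 chow livers. The fit on all 12 livers called 3 members higher, Masp1, Pros1 and Cfb (limma adjusted p = 0.0253), and 2 lower, Kng1 (limma adjusted p = 0.0363) and Proc, and upper-quartile scaling also called Proc. That 12-liver fit called 6.33% of all genes. Hc had a value of 0.34 and Fga of 0.19. In these chow livers 9 of 18 positive acute-phase genes rose, among them Saa1 (4.00), and 1 fell, where 2.24% and 2.04% of all genes did. Of the 7 fibrinogen and common pathway members 0 were called, near the 4.28% of all genes. The difference between the 2 lists was not tested. HuRHep-/- replicate 3 was the lowest of its group for 25 members and had 12440 CPM of summed acute-phase genes against 16850 and 19650. Without it, C4b and Cfb were called as well as Masp1 and Pros1.

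Under HFCF the called members were lower in livers labelled HuRHep-/-: 4 of 47 members fell and 0 rose, where 4.19% of 14295 genes fell and 2.81% rose. Of these, 1 reached a fold change of 1.5, against 3.77% of all genes. Livers did not overlap for 11 members that were lower and 1 that was higher, 12 of 47, against 37.1% of all genes. At an unadjusted p under 0.05 there were 12 members (25.5%), against 29.6% of all genes, and the median log2 fold change was -0.079, against -0.0093. Over both directions, 2 of 46 members in chow and 4 of 47 in HFCF were called, against 4.28% and 7.0% of all genes, counts that lie near the background. Scaling by total counts called only Klkb1 lower (-0.49, limma adjusted p = 0.0359) and Serpinf2 higher (0.50, limma adjusted p = 0.046), and F5 (-0.21, limma adjusted p = 0.0658), Masp2 (-0.22, limma adjusted p = 0.0592) and C1s1 (-0.23, limma adjusted p = 0.0742) lost the call. The median of the members was then 0.080, with that of all genes at 0.15.

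On GRCm38, Klkb1 (ENSMUSG00000109764) is at chr8:45266689-45294859 on the minus strand, F5 (ENSMUSG00000026579) at chr1:164151838-164220277 on the plus strand, Masp2 (ENSMUSG00000028979) at chr4:148602554-148615499 on the plus strand and C1s1 (ENSMUSG00000038521) at chr6:124530345-124542359 on the minus strand. Klkb1 was 238, 277 and 208 CPM in HFCF WT and 139, 161 and 161 in HFCF HuRHep-/-, and fell by 0.65 on the log2 scale (SE 0.116, 1.57-fold lower, limma adjusted p = 0.0287). F5 was 255, 259 and 256 CPM against 192, 207 and 201, and fell by 0.37 (SE 0.0579, 1.29-fold lower, limma adjusted p = 0.0223). Masp2 was 211, 240 and 202 CPM against 166, 170 and 167, and fell by 0.38 (SE 0.0755, limma adjusted p = 0.0357). In all 3 genes the groups stood apart. C1s1, the C1s protease, was 368, 426 and 390 CPM against 282, 318 and 311, and fell by 0.38 (SE 0.0791, limma adjusted p = 0.0379). Klkb1, F5 and Masp2 lost the call without WT replicate 1 or without any one of the HuRHep-/- livers, and C1s1 lost it whichever liver was left out. Masp2 shares 54.9% of its exon length with Tardbp on the opposite strand, whose value was -0.28 (limma adjusted p = 0.0682), and the study's alignment used strand. Klkb1 shares 43.2% of its exon length with Gm45753 on the same strand, which was not a listed gene, so its counts are uncertain.

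**Figure D4:**
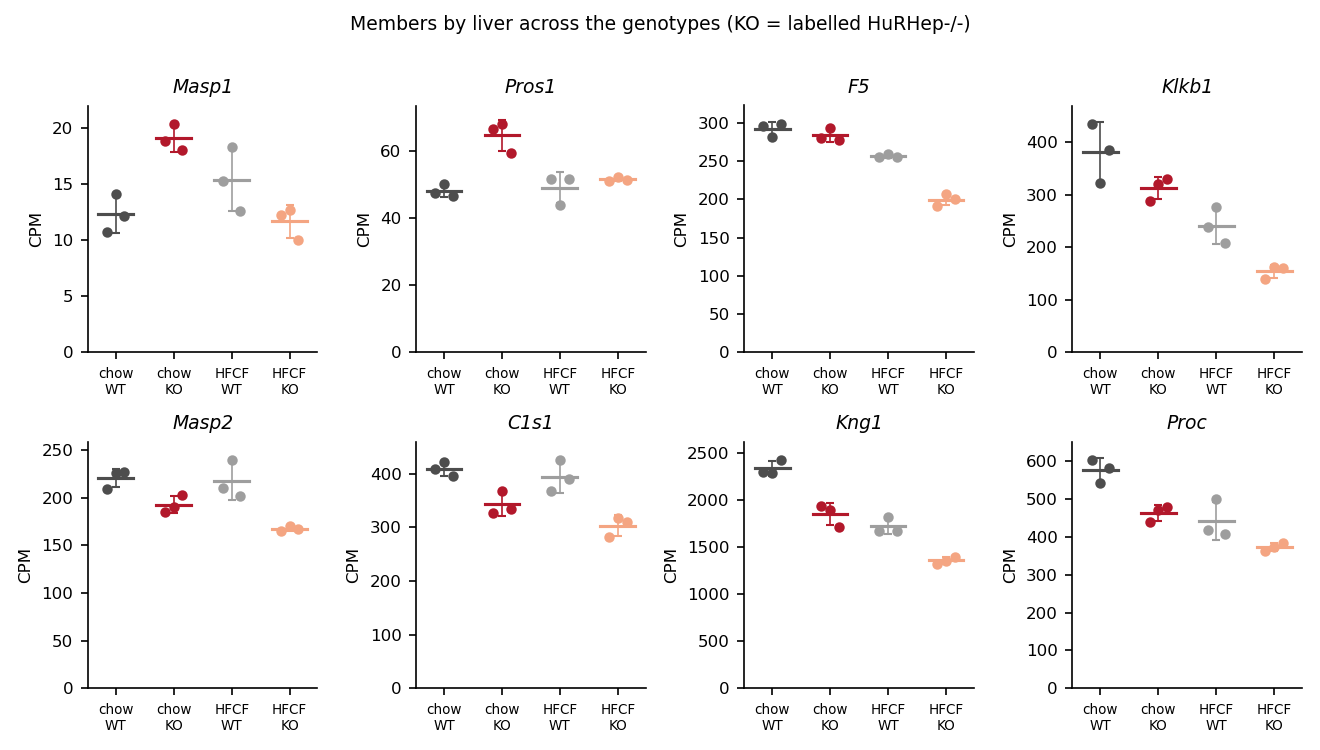
CPM in each of the 12 livers (points, by group on the horizontal axis) with group means (horizontal bars) and SDs (vertical bars) for the 6 members called between genotypes, with Kng1 and Proc, where KO stands for livers labelled HuRHep-/-. Masp1 and Pros1 are higher in all 3 chow livers labelled HuRHep-/- than in chow WT, and F5, Klkb1, Masp2 and C1s1 are lower in all 3 HFCF livers labelled HuRHep-/- than in HFCF WT.

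The members with the largest values in their role under HFCF that did not pass were Cfd (-1.57, limma adjusted p = 0.136), C8b (-0.54), Masp1 (-0.40, limma adjusted p = 0.143), Proz (-0.34, limma adjusted p = 0.0826) and Serpinf2 (0.34, limma adjusted p = 0.159). Cfd stood at 260, 49.0 and 59.9 CPM in WT and 26.8, 25.2 and 43.4 in HuRHep-/-, and without WT replicate 1 its value was -0.79. Masp1 was 15.2, 18.3 and 12.6 CPM against 12.3, 12.7 and 10.01, so the sign of its difference was opposite to that in chow. Its interaction was called (limma adjusted p = 0.0407) only without HFCF WT replicate 3. Proz was 223, 287 and 226 CPM against 186, 194 and 198. F9, factor IX, whose absence gives haemophilia B, was 141, 171 and 158 CPM against 116, 131 and 125 (-0.34, limma adjusted p = 0.0534). Kng1 was 1669, 1822 and 1677 CPM against 1326, 1357 and 1400 (-0.35, limma adjusted p = 0.0524). The fit on all 12 livers called F9, Kng1 and Proz lower as well as the 4 members above, where 11.6% of all genes were called, and voom weights also called Kng1. The replicate block fit called Masp1 and F9 lower as well as those 4, where 9.16% of all genes were called. Without HFCF WT replicate 2, in which most members were high, 4 members were called, F5, Klkb1 and Masp2 lower and Serpinf2 higher, and the median of the members was 0.0023.

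The chow and HFCF genotype comparisons share no liver, so their directions can be set side by side. C1s1, F13b, Kng1, Masp2 and Proc were lower, and Cfb was higher, in every liver labelled HuRHep-/- than in every WT liver of the same diet, in both diets. These 6 are 33.3% of the members without overlap in chow and 54.5% of those in HFCF, among members tested in both, where the same shares over all genes were 41.0% and 32.1%. Kng1, for one, had log2 fold changes of -0.34 and -0.35, and the sum of Kng1 and its paralog Kng2 gave -0.31 and -0.29. Kng2 itself, the other kininogen gene, had -0.08 and -0.00.

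**Figure D5:**
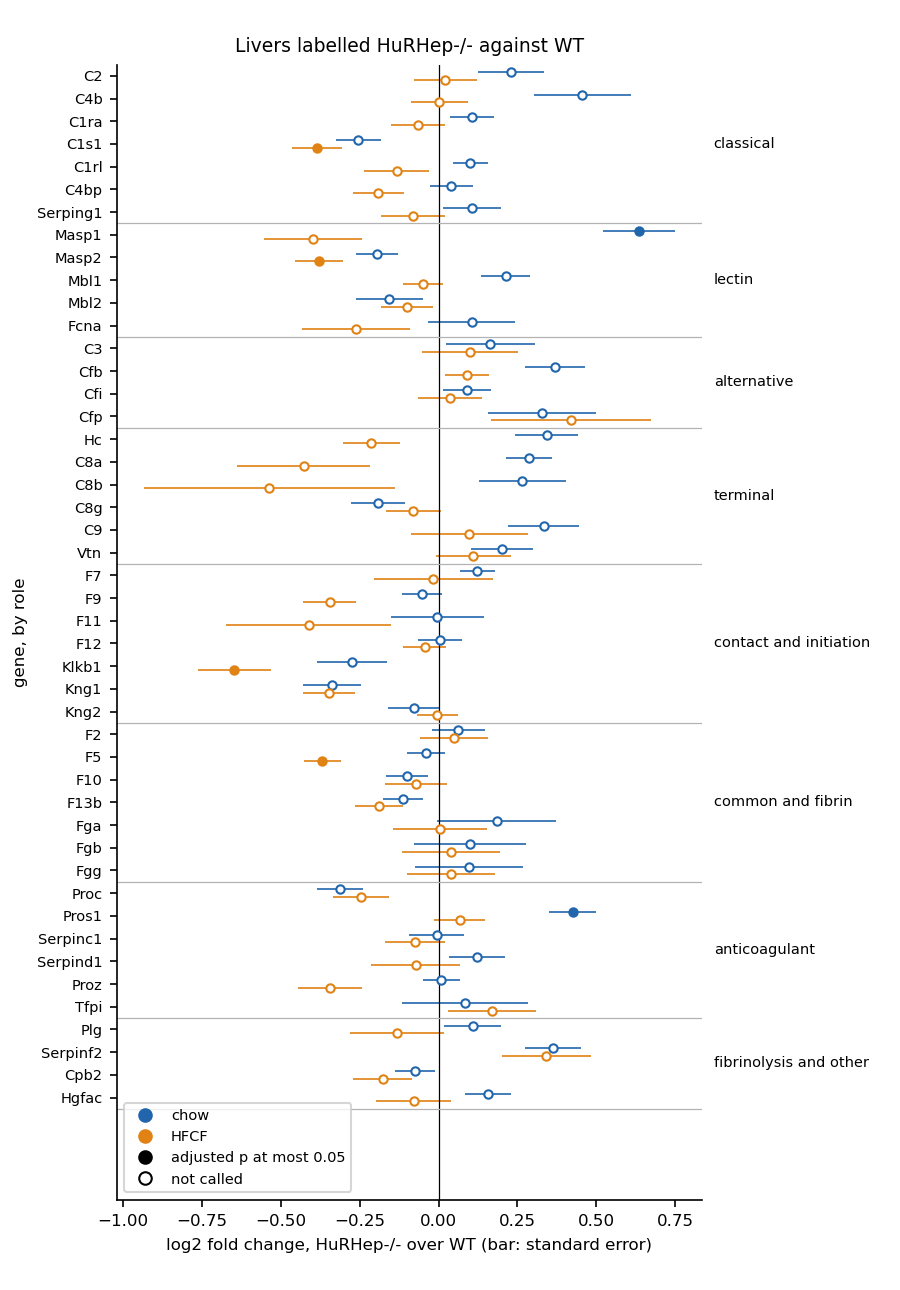
Log2 fold change of livers labelled HuRHep-/- over WT (horizontal axis) for 46 members by role (vertical axis), blue for chow and orange for HFCF, with standard errors as bars and filled points where the limma adjusted p is at most 0.05. Cfd is left out: it was not tested in chow and had -1.57 in HFCF. Filled points are Masp1 and Pros1 to the right in chow and C1s1, Masp2, F5 and Klkb1 to the left in HFCF.

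Several members share sequence with near copies, which the counting may have split. C1rb and C1s2 added at most 0.582 CPM to C1ra and C1s1, and C4b with C4a gave 0.36 in chow and -0.10 in HFCF between genotypes. Of the distinct words of 31 bases in the transcripts of Cfb and C2, 81.5% and 59.8% also occur in Gm20547, a read-through gene listed at 5.41 to 50.8 CPM, so a part of their counts may be credited to it.

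Of 47 further complement and coagulation genes, many of them receptors, macrophage products and regulators, 45 were tested for diet. With HFCF, 10 rose and 4 fell in WT, where 11.1% and 13.3% of all genes did, and 18 rose and 10 fell in HuRHep-/-, against 18.8% and 20.9%. Their median log2 fold change was 0.23 in WT and 0.55 in HuRHep-/-, and the difference from the members was not tested. C5ar1, the receptor of C5a, rose by 1.5 and 2.14 on the log2 scale, C3ar1, the receptor of C3a, by 1.02 and 1.73, and C1qb, a chain of C1q made by macrophages, by 0.72 and 1.06. Vkorc1, which recycles the vitamin K that clotting factors need, fell by 0.33 and 0.35. Markers of macrophages and monocytes moved with the genes that rose: their sum over 6 genes was 36.03 to 49.3 CPM in chow WT, 50.1 to 66.1 in chow HuRHep-/-, 75.5 to 170.7 in HFCF WT and 144.7 to 199 in HFCF HuRHep-/-, and its part in these values was not tested.

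Between genotypes, limma called 0 of 41 of these other genes in chow (9 at an unadjusted p under 0.05), and 5 fell and 0 rose of 45 under HFCF, where 4.19% and 2.81% of all genes did. The list as a whole did not go one way under HFCF: 28 of the 45 had a value above 0 and 17 below, with a median log2 fold change of 0.20, and the groups did not overlap for 15 that were higher and 10 that were lower, against 37.1% of all genes in either direction. C6, the component that follows C5b in the membrane attack complex, was 287, 251 and 164 CPM in HFCF WT and 60.9, 87.6 and 71.5 in HFCF HuRHep-/-, and fell by 1.66 (SE 0.221, limma adjusted p = 0.0173). C4a was 98.1, 159 and 80.8 CPM against 40.1, 41.5 and 36.8, and fell by 1.46 (limma adjusted p = 0.0213), where its near copy C4b had 0.00. Hrg, a plasma protein that binds heparin and plasminogen, was 692, 933 and 772 CPM against 490, 502 and 548, and fell by 0.64. F2r, the thrombin receptor PAR1, fell by 0.62. For these 4 named genes every liver labelled HuRHep-/- lay below every WT liver of that diet.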

How the data were processed

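Liver RNA was measured by RNA-seq in 12 mice, 3 in each of 4 groups taken from the labels. Per the study's methods and the labels, stranded libraries were aligned in CLC Genomics Workbench to refseq_GRCm38.p6 with reverse strand alignment, and the authors deposited raw counts per gene in a table for each diet, written with a comma as digit separator (the version was not given in the sources used here). The deposited whole numbers were read without the comma. The members and all lists (roles, other pathway genes, regulators, acute-phase and other secreted proteins, and cell markers) were chosen with earlier results of these data known.

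A gene was tested where at least 3 livers reached the CPM that 10 counts give at median depth, and where its summed counts were at least 15. TMM factors (trims of 0.3 and 0.05) were computed within each diet for genotype comparisons and over all livers for diet and the interaction. Log2 CPM, with a pseudocount of 0.5 added to each count, was tested with limma 3.58.1 in R 4.3.3 (trend, two-sided), and p-values were Benjamini-Hochberg adjusted over all genes tested. A gene was called at an adjusted p of at most 0.05. Genotype was fitted on the 6 livers of a diet, diet and the interaction on all 12. CPM printed per liver uses 1 scaling over all 12 livers. Whether groups overlap was counted on the scale of each fit, which differs from the printed CPM for Hc and C4bp in HFCF and F10 in chow. On simulated data, the chow fit called 195 of 200 genes changed 2-fold and 4 unchanged genes among 13558 tested. The simulation gave every gene the same dispersion and changed only well-counted genes. It does not show how often smaller differences, or those of more variable genes, would be called. Depth was 30071731 to 35949203 counts per library, and levels per kb use the exon length of the annotation. Members named were those called between genotypes, the largest change of each role, and the 8 smallest p of each diet comparison. C8b, F11, C8g, Mbl2, the fibrinogen chains and others outside this rule were named after their values were seen. Alternatives were RLE, upper-quartile and total-count scaling, another filter, another pseudocount, voom weights, the replicate block, other samples in the fit and leaving out each liver. Of the other pathway genes, some that were called are not reported here by name.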

Additional observations from a re-analysis of the deposited data

How the results depend on the processing

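The number of members called kept within 1.5 times of 2 in chow, 4 in HFCF, 0 for the interaction, 28 for diet in WT and 37 for diet in HuRHep-/- under RLE and upper-quartile scaling, both other filters, a pseudocount of 2 and voom weights. Scaling by total counts, chosen after seeing the data, called 4 members in chow, all higher, and 2 in HFCF, 1 higher and 1 lower, and moved the median of the members in HFCF to 0.080, with that of all genes at 0.15. It called 5.12% of all genes in chow and 9.39% in HFCF. The fit on all 12 livers called 5 in chow, 3 higher and 2 lower, and 7 in HFCF, all lower, where 6.33% and 11.6% of all genes were called. Diet in WT fitted on the 6 WT livers alone called 17, against 15.1% of all genes. Leaving out 1 liver gave 0 to 4 members in chow, 0 to 4 in HFCF, 0 to 1 for the interaction, 19 to 33 for diet in WT and 33 to 39 for diet in HuRHep-/-. In the replicate block fit, 2, 6, 0, 31 and 39 members were called, against 3.19%, 9.16%, 0.0%, 24.5% and 40.2% of all genes. The numbers name livers and are not stated to pair them: same-numbered livers correlated at -0.0276, 0.112 and -0.0158 in chow and at 0.1, 0.21 and 0.0898 in HFCF, where each liver correlated best with its own number. Of the single members' values recomputed, 611 kept direction and call, 29 lost the call, 9 gained it and 0 changed sign among those called. Cfd gave no value for diet or the interaction with at least 10 counts required in every library. The causes were not tested. The genotype calls rest on 3 livers against 3 and on labels that the Elavl1 counts went against, and the diet results on 2 tables that differ in diet and possibly in other ways.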

Other observations

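Outside complement and coagulation, the acute-phase list differed between genotypes. In chow livers labelled HuRHep-/-, 9 of 18 positive acute-phase genes rose and 1 fell (limma, adjusted p of at most 0.05), where 2.24% and 2.04% of all genes did. Saa1, serum amyloid A, was 21.4, 55.5 and 22.4 CPM in WT and 503, 1167 and 185 in HuRHep-/-, and Lcn2, lipocalin 2, rose by 3.06 and Mt2, a metallothionein, by 3.04 on the log2 scale. Hp, haptoglobin, rose from 2757, 2672 and 2655 CPM to 5154, 6312 and 3696. Hpx, hemopexin, which binds free heme, fell by 0.92 in chow and by 1.61 in HFCF. Under HFCF 1 of the 18 rose, Itih3 (0.85), and 2 fell, where 2.81% and 4.19% of all genes did. Of 10 negative acute-phase and other secreted genes, Fetub was the 1 that fell in chow (-0.42), and limma called 0 in HFCF (4 at an unadjusted p under 0.05). Of the 14 regulators, Stat3, which relays IL-6 signals, rose under HFCF (0.53) from 54.4, 63.7 and 54.9 CPM to 95.0, 71.6 and 85.6.

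Among markers of other cells, diet moved several lists, and genotype calls were confined to cholangiocyte markers under HFCF. With HFCF, 11.1% of all genes tested rose and 13.3% fell in WT, and 18.8% rose and 20.9% fell in HuRHep-/-. Of the macrophage and monocyte markers, 4 of 6 rose in WT and 5 of 6 in HuRHep-/-. Of 8 Kupffer cell markers, 2 rose in WT, and 3 rose and 1 fell in HuRHep-/-. All 6 stellate cell markers and all 5 cholangiocyte markers tested rose with HFCF in HuRHep-/-, against 1 and 0 in WT, a difference the interaction did not call. Between genotypes under HFCF, 2 of 5 cholangiocyte markers rose, where 2.81% of all genes did, with a median of 1.39 over the list. Of 3 neutrophil and 4 T, B or NK cell markers tested, 1 gene each rose with HFCF in HuRHep-/-, counts near the background of 18.8%. Limma called 0 of 6 sinusoidal endothelial markers with diet (0 in WT and 1 in HuRHep-/- at an unadjusted p under 0.05) and 0 of 3 erythroid markers tested (0 at that p). The 1 pancreas marker tested, Cela1, which is not specific to pancreas, fell in both genotypes.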
